A study of Mus musculus with 9 samples.

Results

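The genes described here are 9 regulators and products of osteoblasts, the cells that lay down and mineralize bone: Runx2, Sp7, Dlx5, Alpl, Phospho1, Bglap, Bglap2, Sparc and Ifitm5. They were taken by gene symbol from the 56980 genes of the deposited table, where each had 1 row, and all 9 were among the 16576 genes left after the filter on low counts. Bulk RNA came from wild-type C57BL/6 mice stated to be female, 5 of them aged (20 months old, aged 1 to aged 5) and 4 young (3 months old, young 1 to young 4), with no other treatment. The labels call the tissue bone marrow, while the extraction protocol describes trabecular bone that was homogenised. The series concerns the innervation of aging bone, and the comparison asked which transcripts differ with age.

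Osteoblasts arise from stromal precursors when the transcription factor Runx2 is active, followed by Sp7 (osterix), a zinc finger factor without which no osteoblasts form in mice. Mature cells secrete a collagen matrix with calcium-binding proteins such as osteonectin (Sparc) and osteocalcin (Bglap and Bglap2). Mineral forms when phosphate is released by Phospho1 inside matrix vesicles and when the alkaline phosphatase Alpl removes pyrophosphate, an inhibitor of crystal growth.

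The libraries held 19804883 to 23548594 estimated counts. Aged 3, aged 4 and young 4 stood apart, with 6.16% to 7.34% of counts on ribosomal protein genes, against 3.19% to 3.45% in the other 6 libraries. Xist, the transcript that silences an X chromosome, had 7909 to 21724 counts in aged 1 to aged 4, and 9 counts in aged 5 and 1 to 8 in the young libraries. The Y-linked gene Ddx3y had 0 counts in aged 1 to aged 4, and 1640 in aged 5 and 888 to 1721 in the young libraries. These values went against the stated sex in aged 5 and in all 4 young libraries, so that age and sex-linked expression cannot be told apart except through aged 5. Gene coordinates are those of GRCm38 in GENCODE M21. Results are given for all 9 libraries, for the 6 libraries alone, for aged 3 and aged 4 against young 4, and for aged 5 against young 1 to young 3.

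The osteocalcin genes come first as sequences, because their near identity limits what their counts can say. On chromosome 3 of GRCm38, Bglap lies at chr3:88383501-88384464, Bglap2 at chr3:88377736-88378699 and the related gene Bglap3 at chr3:88368616-88372743, all on the minus strand, in GENCODE M21. The gaps between neighbours are 4801 bases (Bglap2 to Bglap) and 4992 bases (Bglap3 to Bglap2). Their coding sequences, 285 bases each without the stop codon, differ at 4 bases between Bglap and Bglap2 (98.6% identical), at 9 between Bglap2 and Bglap3 (96.8%) and at 13 between Bglap and Bglap3 (95.4%). Coding bases 166 to 285 are shown 5′ to 3′, with capitals where a base differs from Bglap.
Bglap: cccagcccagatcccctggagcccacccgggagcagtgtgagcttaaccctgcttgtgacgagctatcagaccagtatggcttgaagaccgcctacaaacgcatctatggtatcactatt
Bglap2: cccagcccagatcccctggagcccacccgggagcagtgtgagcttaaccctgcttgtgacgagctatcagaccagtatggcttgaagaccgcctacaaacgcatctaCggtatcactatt
Bglap3: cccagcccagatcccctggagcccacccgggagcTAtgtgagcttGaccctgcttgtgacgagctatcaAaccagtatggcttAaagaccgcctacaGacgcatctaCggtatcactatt
Over these 120 bases Bglap2 differs from Bglap at 1 position and Bglap3 at 7. A read from this stretch that misses these positions cannot be assigned to 1 of the genes, so the division of counts between Bglap and Bglap2 is uncertain.

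The promoter of Bglap is shown because Runx2 protein is known to bind the osteocalcin promoter. The log2 fold change of RNA (aged over young) was -0.09 (SE 0.27) for Runx2 and -2.14 (SE 0.87) for Bglap. These 2 values were not tested against each other. RefSeq promoter sequences (GRCm38.p6) were matched by symbol for 6 of the 9 members, in 7 windows of the 250 bases before a start site. The letters ACCACA, part of the site that Runx proteins bind, TATAAA, the TATA box, and GGGCGG, the GC box, were searched on both strands, and matches are set in capitals. The Bglap window is chr3:88384467-88384716 on the minus strand, written 5′ to 3′.
Bglap: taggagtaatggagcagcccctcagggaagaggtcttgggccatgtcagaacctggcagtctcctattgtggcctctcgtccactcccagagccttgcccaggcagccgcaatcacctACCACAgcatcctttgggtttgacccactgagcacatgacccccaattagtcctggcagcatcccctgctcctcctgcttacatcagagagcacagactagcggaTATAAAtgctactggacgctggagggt
In Bglap, ACCACA begins at -132 and TATAAA at -27, counted back from -1 at the base before the start site. In the Runx2 window, which is not printed because 170 of its 250 bases lie inside the Runx2 gene as GENCODE M21 draws it, ACCACA begins at -80. ACCACA is not among the letters of the windows of Alpl, Phospho1, Sparc and Ifitm5. The Sparc window and 1 of the 2 Alpl windows lie wholly inside their genes in GENCODE M21, as do 48 bases of the Ifitm5 window and 1 base of the Phospho1 window. That inner Alpl window holds TATAAA on the other strand, at -192. GGGCGG was found at -15 and -10 in the other Alpl window, at -142 and -119 in Ifitm5 and, on the other strand, at -141, -137 and -72 in Phospho1. Among all 32817 promoter windows of this length, 14.0% hold ACCACA, 12.4% TATAAA and 32.7% GGGCGG on either strand, and the matches in Bglap do not overlap each other.

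All 9 genes had a negative log2 fold change (aged over young), against 46.5% of the genes tested, and their median was -0.75, against 0.03 over all genes tested. The value was -2.19 for Bglap2, -2.14 for Bglap and -1.66 for Sparc, lay between -0.83 and -0.57 for Sp7, Phospho1, Dlx5 and Ifitm5, and was -0.40 for Alpl and -0.09 for Runx2. A log2 fold change of -1 or lower was found for 3 of the 9 (Bglap2, Bglap and Sparc), against 3.12% of the genes tested. None of the 9 passed the edgeR test across all genes, which called 0 of 16576 genes (0%), while 1457 genes had an unadjusted p under 0.05. DESeq2 called 298 genes and limma-voom 0. An unadjusted edgeR p under 0.05 with a lower level in aged libraries was found for 4 of the 9 (Sparc, Phospho1, Bglap2 and Bglap), against 4.64% of the genes tested. Bglap and Bglap2 are not independent entries in such counts of members, since they share most of their coding sequence. In bulk tissue, fewer osteoblasts and less RNA per osteoblast cannot be told apart.

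**Figure D1:**
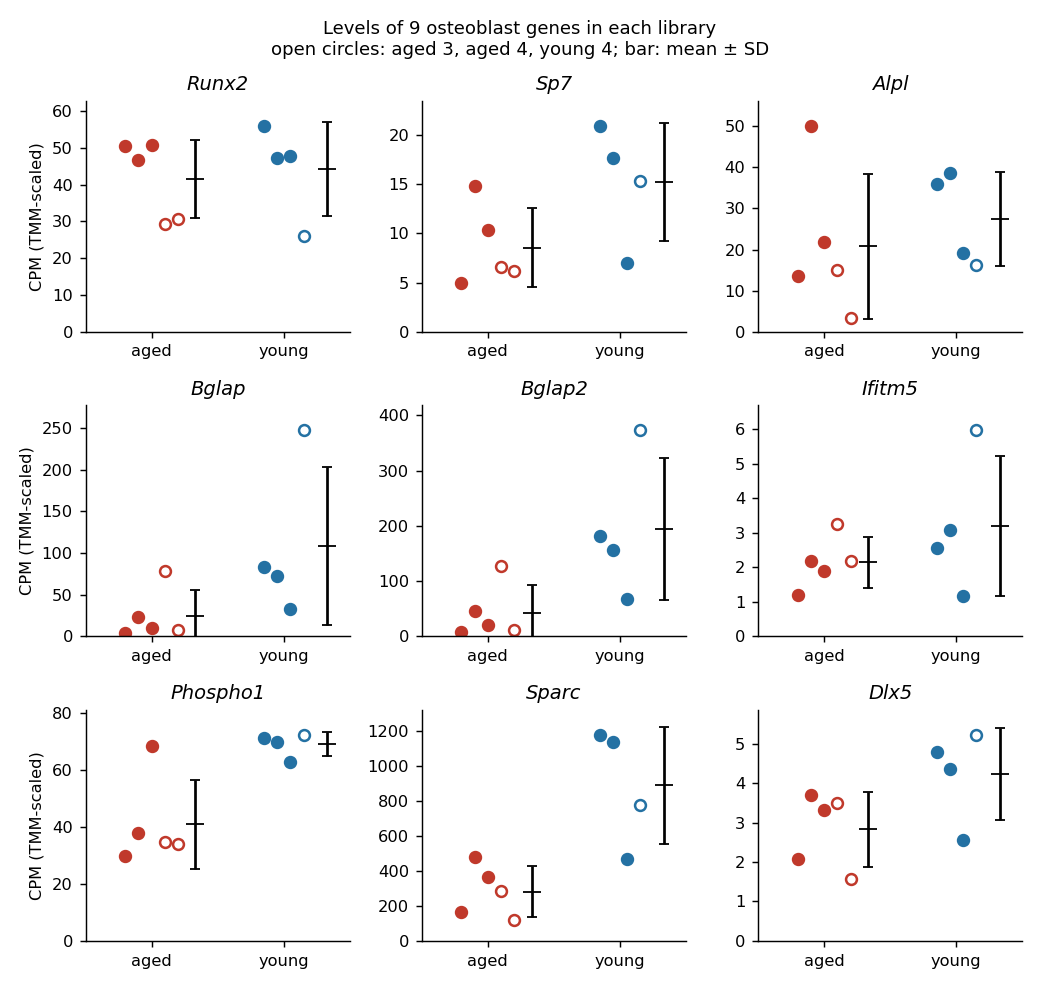
Level of each gene in CPM (counts scaled to a common library size with TMM factors) in 5 aged and 4 young libraries, with open circles for aged 3, aged 4 and young 4, and a bar for mean ± SD cut at 0. Sparc lay between 118 and 480 CPM in aged libraries and between 468 and 1181 in young libraries, and the 2 groups overlap in all 9 panels.

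Among the regulators, Runx2 (ENSMUSG00000039153, chr17:44495987-44814797, minus strand), the factor that commits cells to the osteoblast lineage, was at 50.4, 46.7, 29.4, 30.6 and 50.7 CPM in aged 1 to aged 5, and at 56.0, 47.2, 47.7 and 25.9 CPM in young 1 to young 4. The 3 lowest levels were those of aged 3, aged 4 and young 4, and within the remaining 6 libraries the groups differed little, from 46.7 to 50.7 CPM in aged and 47.2 to 56.0 CPM in young. The log2 fold change was -0.09 (SE 0.27, 95% interval -0.69 to 0.51, edgeR adjusted p = 0.9998), and 0.04 (SE 0.10) in the fit that included the library set. It was -0.02 within the 6 libraries and 0.045 without young 1, so its sign was not settled. Runx2 is also known to be expressed in plasmacytoid dendritic cells, and the summed level of 7 markers of those cells was 92.7 to 285 CPM in aged and 195 to 229 CPM in young libraries. Their part in the Runx2 level was not tested.

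Sp7 (ENSMUSG00000060284, chr15:102356606-102367182, minus strand) was at 4.96, 14.8, 6.56, 6.13 and 10.3 CPM in aged 1 to aged 5, and at 20.95, 17.6, 7.01 and 15.3 CPM in young 1 to young 4. Young 3 lay among the aged libraries, and aged 2 close to young 4. Its log2 fold change was -0.83 (SE 0.39, 95% interval -1.70 to 0.05, edgeR adjusted p = 0.614). The mean was 8.56 ± 4.03 CPM in aged (SD, n = 5) and 15.2 ± 5.94 CPM in young libraries (SD, n = 4).

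Dlx5 (ENSMUSG00000029755, chr6:6877805-6882085, minus strand), a homeodomain factor that acts in osteoblast differentiation, had few reads, 30 to 88 estimated counts in aged and 61 to 126 in young libraries. Its level was 2.07, 3.69, 3.49, 1.56 and 3.315 CPM in aged 1 to aged 5, and 4.79, 4.35, 2.56 and 5.23 CPM in young 1 to young 4. Young 3 again lay inside the aged range, and the other 3 young libraries lay above it. The fit gave a log2 fold change of -0.58 (SE 0.35, 95% interval -1.36 to 0.20, edgeR adjusted p = 0.781).

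The enzymes of mineral formation differed from each other in how they varied. Alpl (ENSMUSG00000028766, chr4:137741733-137796384, minus strand), the tissue-nonspecific alkaline phosphatase, was at 13.5, 50.2, 15.1, 3.38 and 21.7 CPM in aged 1 to aged 5, and at 36.0, 38.5, 19.3 and 16.2 CPM in young 1 to young 4. The highest and the lowest of the 9 libraries were both aged ones, aged 2 and aged 4. Aged over young, its log2 fold change was -0.40 (SE 0.61, 95% interval -1.75 to 0.94, edgeR adjusted p = 0.9998), and it was -1.03 without aged 2 and -0.13 without aged 4.

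Phospho1 (ENSMUSG00000050860, chr11:95824499-95832140, plus strand), a phosphatase that frees phosphate from phosphocholine and phosphoethanolamine, was at 29.8, 37.8, 34.8, 34.0 and 68.4 CPM in aged 1 to aged 5, and at 71.0, 69.7, 62.8 and 72.3 CPM in young 1 to young 4. The first 4 aged libraries lay below every young library, and aged 5 lay within the young range. Its log2 fold change was -0.75 (SE 0.25, 95% interval -1.30 to -0.20, edgeR adjusted p = 0.385), and it was 0.00 (SE 0.11) for aged 5 against young 1 to young 3, the comparison in which all libraries had Y-linked transcripts. Young red cell precursors are known to express Phospho1 as well. The summed level of 12 erythroid markers was 1160, 2780, 3790, 1300 and 3740 CPM in aged 1 to aged 5. In young libraries it was 5750 to 7380 CPM. The groups did not overlap in this sum, and how often sums of other genes do not overlap was not measured. The part of red cell precursors in the Phospho1 difference was not tested.

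The Phospho1 counts carry a further limit. In GENCODE M21, 89.6% of its exon bases lie within exons of Zfp652 on the same strand and 84.2% within exons of Abi3 on the opposite strand, and whether the counting used strand is not given in the sources used here. Zfp652, a zinc finger gene, averaged 84.4 ± 23.1 CPM in aged (SD, n = 5) and 91.4 ± 27.0 CPM in young libraries (SD, n = 4; log2 fold change -0.11, SE 0.28, edgeR adjusted p = 0.9998). Abi3 averaged 61.2 ± 40.2 CPM in aged and 29.9 ± 2.63 CPM in young libraries (log2 fold change 1.03, SE 0.41, edgeR adjusted p = 0.489). Smaller overlaps touch Ifitm5 (29.7% of exon bases shared with Gm45717) and Runx2 (5.9%, with its antisense RNA Runx2os1), whose partners averaged 0.0523 and 0.312 CPM in aged and 0.0324 and 0.137 CPM in young libraries.

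Among the matrix proteins, Sparc (ENSMUSG00000018593, chr11:55394500-55423183, minus strand), osteonectin, was at 164, 480, 284, 118 and 367.5 CPM in aged 1 to aged 5, and at 1181, 1137, 468 and 778 CPM in young 1 to young 4. Only aged 2 reached the young range, just above young 3. The log2 fold change was -1.66 (SE 0.44, 95% interval -2.63 to -0.68, unadjusted p = 0.00354, edgeR adjusted p = 0.299). DESeq2 called Sparc alone among the 9 (log2 fold change -1.65, adjusted p = 0.0249), against 1.56% of all genes with an adjusted p. In the authors' deposited table Sparc was likewise the single member called, with an adjusted p of 0.0249, against 0.988% of 30357 genes with a count.

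Sparc is also made by megakaryocytes and endothelial cells. The summed level of 10 megakaryocyte markers was 871 to 2380 CPM in aged and 1220 to 1850 CPM in young libraries, and that of 8 endothelial markers was 169 to 344 CPM in aged and 205 to 250 CPM in young libraries. Aged 4, the library with the lowest Sparc level, had the highest megakaryocyte sum, 2380 CPM. Aged 1, with the next lowest Sparc level, had the lowest megakaryocyte sum, 871 CPM. The groups overlapped for both lists, and the part of these cells in the Sparc level was not tested.

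Bglap2 (ENSMUSG00000074486) was at 8.41, 45.3, 127.6, 11.0 and 20.6 CPM in aged 1 to aged 5, and at 180.9, 155.6, 67.65 and 373 CPM in young 1 to young 4. Aged 3 lay above young 3, and the other 4 aged libraries lay below every young library. Aged over young, the log2 fold change was -2.19 (SE 0.80, 95% interval -3.97 to -0.41, edgeR adjusted p = 0.441). The highest level among aged libraries, in aged 3, and the highest among young libraries, in young 4, were both in the set of 3.

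Bglap (ENSMUSG00000074483) ranked the libraries of each group in the same order as Bglap2, at 4.01, 23.0, 79.0, 7.53 and 10.2 CPM in aged 1 to aged 5, and at 83.2, 72.4, 32.8 and 247.7 CPM in young 1 to young 4. The log2 fold change was -2.14 (SE 0.87, 95% interval -4.07 to -0.21, edgeR adjusted p = 0.500). It was -1.35 without young 4 and -3.28 without aged 3, and for Bglap2 the same values were -1.67 and -3.19. Since the genes share most of their coding sequence, their counts are not independent of each other.

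The ratio of Bglap2 to Bglap counts separated the library sets and not the ages. It was 2.09, 1.97 and 2.02 in aged 1, aged 2 and aged 5, and 2.17, 2.15 and 2.06 in young 1 to young 3. In the set of 3 it was 1.62 in aged 3 and 1.45 in aged 4, and 1.51 in young 4. Bglap3, which is known for expression outside bone in mice, had a level of 0.797 to 5.87 CPM in aged and 2.35 to 9.17 CPM in young libraries, with a log2 fold change of -1.34 (SE 0.63, edgeR adjusted p = 0.599).

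Ifitm5 (ENSMUSG00000025489, chr7:140948958-140950291, minus strand), a small membrane protein of osteoblasts whose mutation causes a form of brittle bone disease in humans, had the fewest reads, 27.82 to 53 estimated counts in aged and 27.92 to 88 in young libraries. Its level was 1.21, 2.18, 3.25, 2.18 and 1.88 CPM in aged 1 to aged 5, and 2.55, 3.07, 1.18 and 5.975 CPM in young 1 to young 4. The lowest of the 9 libraries was young 3 and the highest young 4. The fit gave a log2 fold change of -0.57 (SE 0.47, 95% interval -1.62 to 0.47, edgeR adjusted p = 0.931), and it was -0.08 without young 4.

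**Figure D2:**
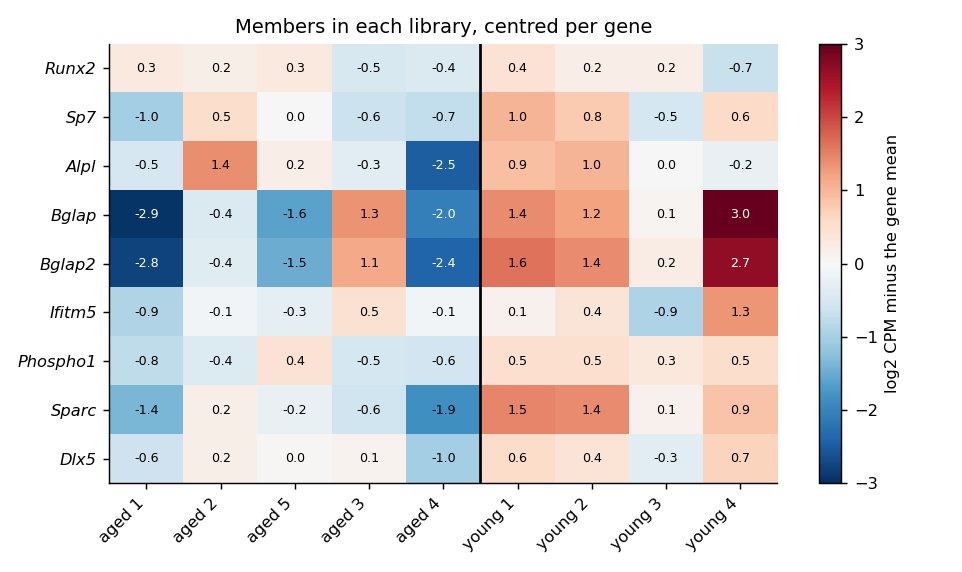
Log2 CPM of each gene minus its mean over the 9 libraries, with aged libraries left of the line and young libraries right of it. Aged 1 and aged 4 were below the mean in all genes except Runx2 in aged 1, while young 3 was below the mean for Sp7, Ifitm5 and Dlx5 and young 1 and young 2 were above it for all 9 genes.

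The libraries of a group were not alike. The summed level of the 9 genes was 278, 703, 583, 214 and 555 CPM in aged 1 to aged 5, and 1640, 1550, 709 and 1540 CPM in young 1 to young 4. Young 3 was thus just above aged 2, and the other 3 young libraries stood well above every aged library. No gene of the 9 had every aged library below every young library, a pattern that 2.76% of the genes tested showed. For 4 of the 9 (Phospho1, Sparc, Bglap and Bglap2), 4 of the 5 aged libraries lay below every young library, against 8.37% of the genes tested with at least 4 such libraries.

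Across library sets the sign was the same for all of the genes except Runx2. Within the 6 libraries, Bglap and Bglap2 had every aged library below every young library, 2 of 9 genes against 16.6% of the genes tested, and the remaining 7 overlapped. The log2 fold change within the 6 was -2.43 (SE 0.64) for Bglap2, -2.32 (SE 0.64) for Bglap and -1.45 (SE 0.48) for Sparc, with edgeR adjusted p of 0.0908, 0.0953 and 0.134. It was -0.59 for Sp7, -0.57 for Phospho1, -0.36 for Dlx5, -0.35 for Ifitm5, -0.12 for Alpl and -0.02 for Runx2. This fit called 0 of the 9 and 0.012% of all genes.

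Aged 3 and aged 4 together, set against the single library young 4, gave a mean log2 difference of -3.31 for Bglap2, -3.34 for Bglap and -2.09 for Sparc, given without a test. The difference was -1.26 for Sp7, -1.17 for Alpl, -1.14 for Ifitm5, -1.13 for Dlx5, -1.07 for Phospho1 and 0.21 for Runx2. Thus 8 of the 9 were below 0, against 55.3% of the genes tested. An age effect that differs between the sets was tested as an interaction term across all genes, and the smallest edgeR adjusted p among the 9 was 0.947.

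With the library set as a term, 0 of the 9 were called, against 1.92% of the genes tested. The smallest edgeR adjusted p-values were 0.0689 for Sparc (log2 fold change -1.62, SE 0.40), 0.0886 for Bglap (-2.40, SE 0.65) and 0.0904 for Bglap2 (-2.44, SE 0.67). Aged 5 against young 1 to young 3 gave -2.72 for Bglap2 (SE 0.54, edgeR adjusted p = 0.0431) and -2.63 for Bglap (SE 0.52, adjusted p = 0.0421), both called, against 3.43% of the genes tested. In that fit the single aged library is assumed to vary like the young ones. Sparc was at -1.35 there (SE 0.48, adjusted p = 0.196), Sp7 at -0.57, Alpl at -0.53, Ifitm5 at -0.27, Dlx5 at -0.24 and Runx2 at 0.00.

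**Figure D3:**
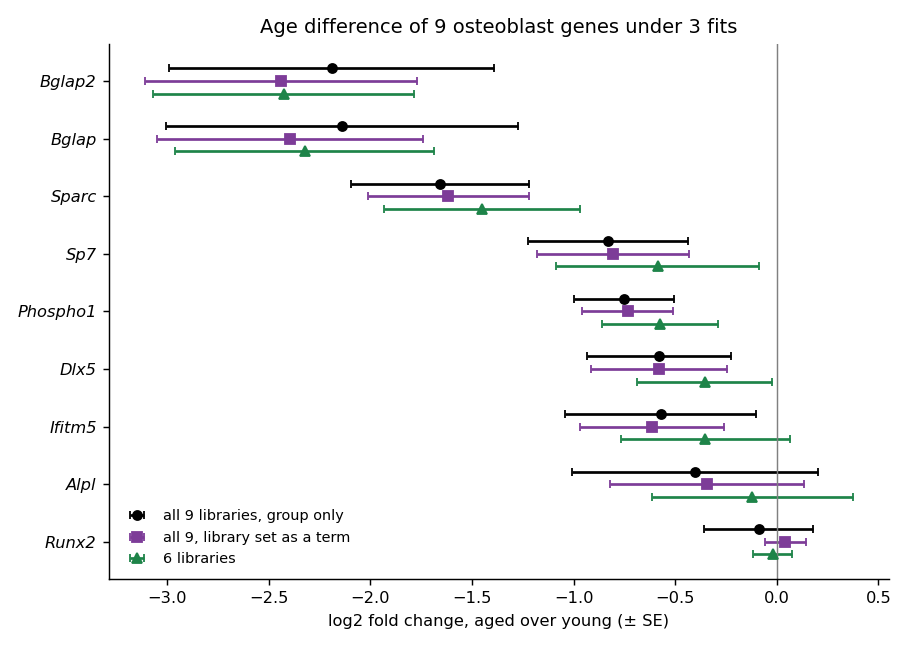
Log2 fold change (aged over young, ± SE) of each gene in all 9 libraries, in all 9 with the library set as a term, and in the 6 libraries alone. The values of Bglap2, Bglap and Sparc lie between -2.44 and -1.45 in the 3 fits, and those of Runx2 between -0.09 and 0.04.

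Levels of different genes were compared on the TPM scale, which is per transcript length. The median TPM over the 9 libraries was 332 for Bglap2, 226 for Sparc, 215 for Bglap, 71.3 for Phospho1, 12.7 for Runx2, 9.74 for Alpl, 4.5 for Ifitm5, 2.94 for Sp7 and 2.66 for Dlx5. The secreted matrix proteins were thus the most abundant transcripts, and Sp7 and Dlx5 the rarest, with Runx2 just above Alpl. Every pair of neighbours in this order overlapped in their ranges over the 9 libraries. Bglap2 was above Bglap in every library, whereas Sparc was above Bglap2 in aged 1, aged 2, aged 4 and aged 5 and below it in aged 3 and in all 4 young libraries.

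Bglap2 had a TPM of 58.3, 246, 332, 34.7 and 116.5 in aged 1 to aged 5, and 1094, 829, 353.5 and 815 in young 1 to young 4. On this scale aged 3 (332 TPM) lay just below young 3 (353.5 TPM) for Bglap2, unlike its CPM, in which aged 3 lay above young 3. The share of all genes whose groups do not overlap in TPM was not measured. Runx2 had a TPM of 2.97 in aged 3 and 4.06 in aged 4, and 2.80 in young 4, below the 11.0 to 17.8 TPM of the other 6 libraries. The scales parted for Phospho1 too. Its TPM was 71.3, 70.5 and 95.9 in aged 1, aged 2 and aged 5, and 100.2, 85.8 and 91.3 in young 1 to young 3, whereas in the set of 3 it was 12.0 in aged 3 and 18.3 in aged 4, and 27.4 in young 4.

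**Figure D4:**
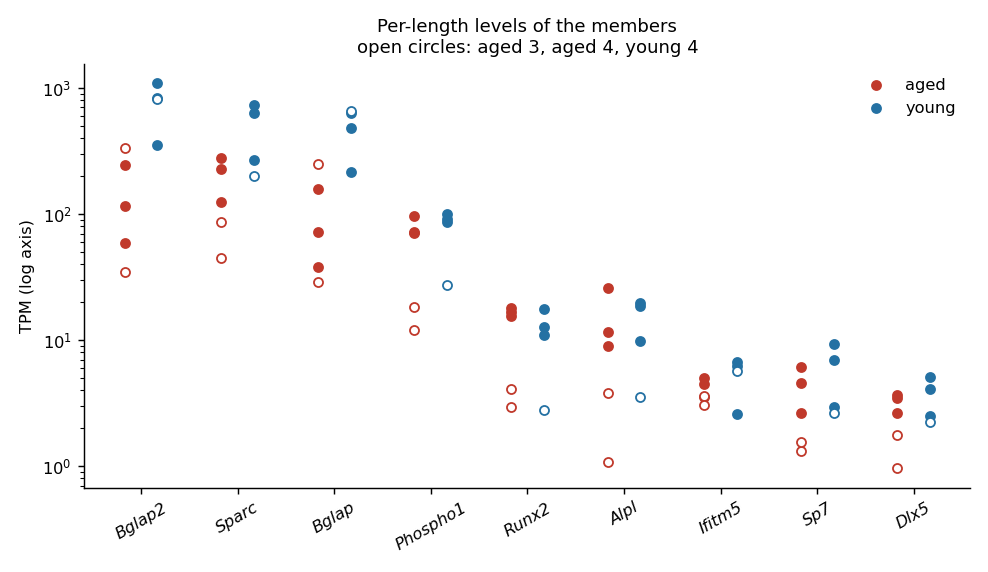
TPM of each gene on a log axis in 5 aged and 4 young libraries, ordered by the median over all libraries, with open circles for aged 3, aged 4 and young 4. Bglap2 spans 34.7 to 332 TPM in aged and 353.5 to 1094 TPM in young libraries. How many of all genes separate the groups in TPM was not measured. The open circles are the lowest of each group for Runx2, Sp7, Dlx5, Alpl, Phospho1 and Sparc, and not for Bglap, Bglap2 and Ifitm5.

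Likeness between genes was measured as the root-mean-square difference of log2 CPM over the 9 libraries, each gene centred on its own mean. Bglap and Bglap2 were the closest pair, at 0.216, followed by Sp7 and Dlx5, at 0.384, and Phospho1 and Dlx5, at 0.421. Runx2 and Bglap were the farthest apart, at 1.99. Sparc was closest to Sp7, at 0.548.

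Among all other genes tested, those nearest to Sparc were Col11a2, Col5a2 and Pcsk5, at 0.338, 0.343 and 0.349, of which Col11a2 and Col5a2 encode fibrillar collagen chains. Nearest to Sp7 were Ptgis, Macroh2a2 and Fmod, at 0.244, 0.252 and 0.317, and nearest to Dlx5 were P4htm, Fkbp10 and Ackr4, at 0.157, 0.160 and 0.187. Fkbp10 encodes a chaperone of collagen, and Fmod encodes fibromodulin, a matrix proteoglycan. Cthrc1, a secreted glycoprotein gene, was nearest to both Bglap and Bglap2, at 0.640 and 0.608, but these distances were much wider than that between the osteocalcin genes themselves.

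Alpl was nearest to Nhsl1, Abi3bp and Unc5b, at 0.226, 0.286 and 0.305, and Ifitm5 to Copz2, Kdelr3 and Pbx4, at 0.263, 0.269 and 0.295. Phospho1 was nearest to Nmnat3, Ednra and Pgap6, at 0.157, 0.176 and 0.178, and Runx2 to Mtx3, Mdm4 and Mtr, at 0.0515, 0.0845 and 0.0851. Genes that vary little have small distances, and Runx2 itself varied by 0.386 around its mean, against 1.80 for Bglap2.

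Other genes of the osteoblast were read from 4 lists, and 0 of their tested members passed the edgeR test across all genes. Of 14 genes for collagens, collagen processing and other matrix proteins, 13 had a log2 fold change below 0. Their median was -0.76, against 0.03 over all genes tested. The collagen I genes Col1a1 and Col1a2 were at -1.82 and -1.64, while P3h1 (0.09), Crtap (-0.11) and Lox (-0.09) lay near 0. Omd (osteomodulin), Serpinf1 (pigment epithelium-derived factor, whose loss in humans impairs mineralization) and Col11a2 had the smallest p-values. Serpinf1 averaged 28.7 ± 10.7 CPM in aged (SD, n = 5) and 71.2 ± 26.8 CPM in young libraries (SD, n = 4; edgeR adjusted p = 0.317), and Col11a2 37.5 ± 25.7 CPM in aged and 109 ± 47.4 CPM in young libraries (adjusted p = 0.385). Omd had a log2 fold change of -1.22 (SE 0.31, adjusted p = 0.289).

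Of 13 other mineralization genes, 10 were below 0, with a median of -0.47. Mepe, a phosphoglycoprotein gene of osteocytes, had a log2 fold change of -1.40 (SE 0.23, edgeR adjusted p = 0.255) and was the single gene of the 4 lists called with the library set as a term (-1.42, adjusted p = 0.0405). Ank and Enpp1, which act on the pyrophosphate that Alpl breaks down, had fold changes of opposite sign, and neither passed the test. Ank, a channel that lets pyrophosphate out of cells, averaged 51.2 ± 13.9 CPM in aged and 86.35 ± 8.77 CPM in young libraries (log2 fold change -0.75, SE 0.22, adjusted p = 0.342). Enpp1, which makes pyrophosphate, averaged 28.0 ± 8.73 CPM in aged and 15.6 ± 2.76 CPM in young libraries (log2 fold change 0.85, SE 0.26, adjusted p = 0.356).

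Of 15 other transcription regulators 13 were measured well enough to test, 9 of them below 0, with a median of -0.33. Hey1 averaged 1.42 ± 0.644 CPM in aged and 2.69 ± 0.499 CPM in young libraries (edgeR adjusted p = 0.555). Cbfb, the partner with which Runx2 binds DNA, averaged 128 ± 25.9 CPM in aged and 97.2 ± 14.6 CPM in young libraries (adjusted p = 0.661), and Lef1, a Wnt pathway factor, 4.18 ± 3.76 CPM in aged and 7.50 ± 0.719 CPM in young libraries (adjusted p = 0.793). Of 12 surface and signalling genes 11 were tested, 8 of them below 0, with a median of -0.28. Fgfr2, a fibroblast growth factor receptor, averaged 12.7 ± 4.10 CPM in aged and 27.1 ± 3.64 CPM in young libraries (log2 fold change -1.09, SE 0.26, adjusted p = 0.267). Bmpr1a, a receptor for bone morphogenetic proteins, had a log2 fold change of 0.65 (adjusted p = 0.466) and Wif1, a Wnt inhibitor, of -0.98 (adjusted p = 0.540). Kremen2, a receptor for Wnt inhibitors in this list, had 0 to 4.01 estimated counts in aged libraries and 0 in all 4 young libraries, and was not tested.

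**Figure D5:**
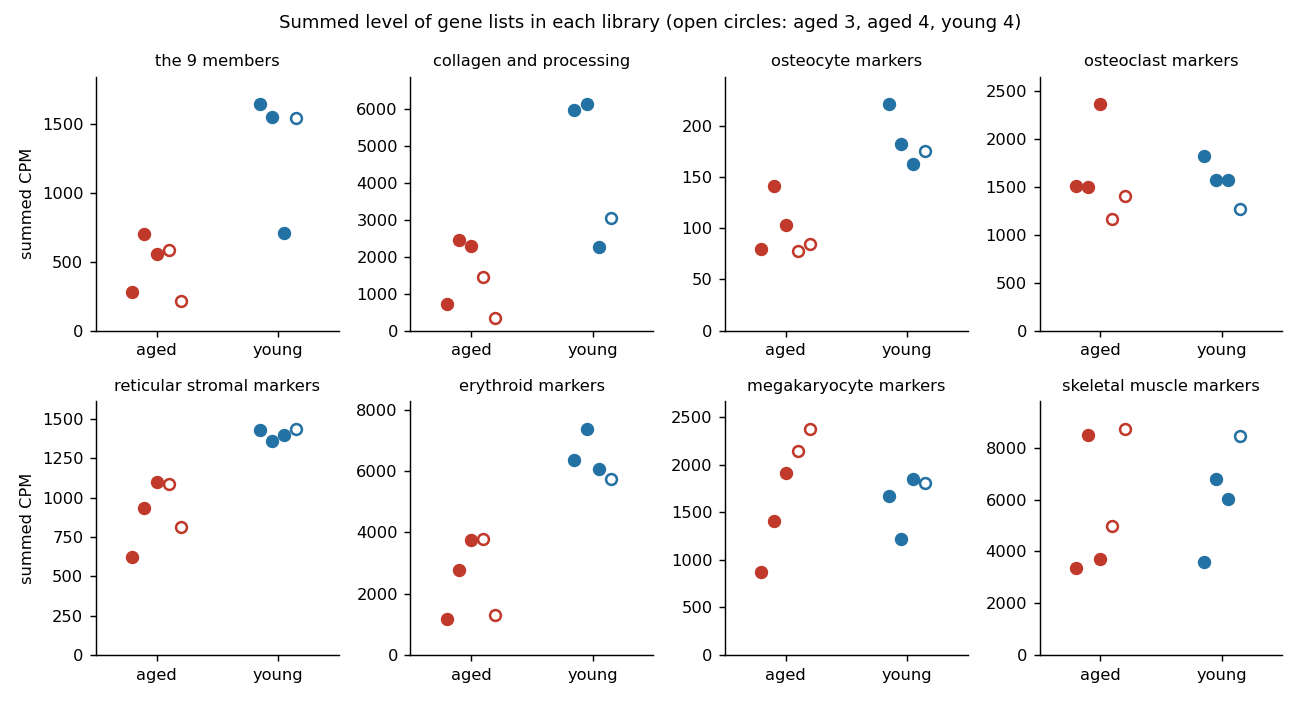
Summed CPM of 8 gene lists in 5 aged and 4 young libraries, with open circles for aged 3, aged 4 and young 4 and each axis starting at 0. The sums of osteocyte, reticular stromal and erythroid markers, and of the 9 members, do not overlap between the groups. The members summed to 214 to 703 CPM in aged and 709 to 1640 CPM in young libraries. Sparc alone gave 480 of the 703 CPM in aged 2 and 468 of the 709 CPM in young 3. Taken singly, each of the 9 genes overlapped between the groups. How often sums of other genes do not overlap was not measured.

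The summed level of 8 osteocyte markers was 78.1 to 141 CPM in aged and 163 to 221 CPM in young libraries, and 7 of the 8 had a log2 fold change below 0 (Mepe, Dmp1 and Phex are also in the mineralization list). The 5 markers of reticular stromal cells, led by Cxcl12, summed to 624 to 1100 CPM in aged and 1360 to 1440 CPM in young libraries, and all 5 were below 0 with a median of -0.11. Cxcl12, a chemokine gene, averaged 784 ± 187.7 CPM in aged and 1263 ± 38.0 CPM in young libraries (log2 fold change -0.69, edgeR adjusted p = 0.404). All 12 erythroid markers were below 0, with a median of -1.21, and Slc4a1, the anion exchanger of red cells, had a log2 fold change of -1.49 (edgeR adjusted p = 0.342).

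Chondrocyte markers summed to 26.1 to 144 CPM in aged and 38.2 to 229 CPM in young libraries, and only 5 of 11 were tested, all 5 below 0. Markers of osteoclasts, the cells that resorb bone, summed to 1160 to 2360 CPM in aged and 1270 to 1820 CPM in young libraries, with 3 of 9 tested below 0 and a median of 0.32. Adipocyte markers summed to 159 to 472 CPM in aged and 106 to 353 CPM in young libraries, with 0 of 6 below 0 and a median of 0.58. Skeletal muscle markers, of which Tnnt3 and Acta1 had the highest mean TPM, summed to 3360 to 8740 CPM in aged and 3580 to 8450 CPM in young libraries. This was above the summed CPM of the 9 osteoblast genes in every library. Neutrophil markers, the list with the highest summed CPM, were at 15100 to 71600 CPM in aged and 22200 to 52900 CPM in young libraries. CPM is not scaled per transcript length, and such sums depend on the genes listed. No gene of these lists passed the edgeR test over all 9 libraries, no gene of these marker lists was at 0 in every library of either group, and the part of these cells in the differences of the osteoblast genes was not tested.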

How the data were processed

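RNA sequencing libraries of 5 aged and 4 young mice came from 1 deposited table of 56980 Ensembl genes. Its unscaled columns, as deposited, are estimated counts (expected counts, not all whole), which were rounded for the tests. TPM values in the deposited table, scaled per transcript length by the authors, served to compare levels between genes. The log2 fold changes, fold ratios, p-values and adjusted p-values of the authors' deposited table are columns of that kind per the file headers. The name of the deposited table gives DESeq2, with settings not given in the sources used here. Bowtie 0.12.2 and build mm8 were named without a role, per the submitters' processing notes.

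Every adjusted p called edgeR is from the two-sided quasi-likelihood F test (edgeR 4.0.16, R 4.3.3). The design held the age group alone, except where a fit is described with an added term. Scaling was by TMM and low counts were removed with filterByExpr (minimum count 10, minimum total 15), with Benjamini-Hochberg adjustment over 16576 genes, threshold 0.05. Fits of fewer libraries were filtered anew. They were adjusted over 16644 genes in the 6 libraries and over 18025 in aged 5 against young 1 to young 3. CPM values use the TMM factors, and centred log2 levels a prior count of 2. Intervals are 95% intervals of the fit. Alternatives were DESeq2 1.42.0, limma-voom (limma 3.58.1), other scalings and filters, added terms, subsets of libraries and each library left out. The fit was tested on simulated data. Figures were drawn with Python 3.11.15 and matplotlib 3.10.9.

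The members, gene lists, library split and tests were chosen with earlier results of these data known. The text names all 9 members, the 3 genes with the smallest p in each list of other osteoblast genes, the 3 genes nearest to a member by root-mean-square difference, and the markers with the highest mean TPM. Depth was 19804883 to 23548594 estimated counts per library. The closest pair of libraries, young 1 and young 3, had a chi-square of 16.7 per gene, so no library was counted as a copy. The labels call each library a biological replicate. Exon overlaps were taken from GENCODE M21 (GRCm38), and no coordinate was joined to the deposited table other than by gene ID. Reads and isoforms were not analysed here.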

Additional observations from a re-analysis of the deposited data

Results flagged for a closer look

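Bglap in aged 3, at 79.0 CPM, stood far from the other aged libraries, which lay between 4.01 and 23.0 CPM. Its gap to the next library was 0.746 of the group's range, above the limit used for 5 samples. Phospho1 in aged 5, at 68.4 CPM, stood far from the other aged libraries, which lay between 29.8 and 37.8 CPM, with a gap of 0.793 of the range. Aged 3 belongs to the set of 3 libraries with a high share of ribosomal protein counts, and aged 5 is the single aged library with Y-linked transcripts. Both gaps were measured on CPM. On log2 CPM, Bglap was at 6.31 in aged 3 and between 2.04 and 4.53 in the other aged libraries. Phospho1 was at 6.10 in aged 5 and between 4.90 and 5.24 in the others. For normally distributed values, chance alone gives such a gap in about 1 of 20 groups. These levels were not shown to be so distributed. The 18 groups looked at were not independent, since Bglap and Bglap2 share most of their coding sequence.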

How the results depend on the processing

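The count of members called, 0 in the group-only fit, was 1 by DESeq2 (Sparc), 2 in aged 5 against young 1 to young 3 (Bglap and Bglap2), and 0 under every other alternative run. The count of all genes called, also 0, was 298 by DESeq2, 319 with the library set as a term, 13 with the replicate block, 1 with Y-linked transcripts as a term, 2 within the 6 libraries and 619 in aged 5 against young 1 to young 3. With 1 library left out it ranged from 0 to 6, the 6 being without aged 5. The cause of these moves was not tested. Same-numbered libraries had correlated deviations of 0.456, 0.554, -0.387 and 0.739 for numbers 1 to 4. The best match among young libraries was young 1 for aged 1 and young 2 for aged 2. For both aged 3 and aged 4 it was young 4, which is of their library set. These values do not settle whether the numbers pair the mice. The numbers were not taken to do so, and the replicate block called 0 members.

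Log2 fold changes turned positive for Runx2 with the library set term (0.042), with the Y-linked term (0.20), in aged 5 against young 1 to young 3 (0.0025), in aged 3 and aged 4 against young 4 (0.21), and without 1 library (range -0.27 to 0.045), and for Phospho1 in aged 5 against young 1 to young 3 (0.0018). The cause was not tested. The remaining 7 members stayed below 0 under every alternative run, but the sign alone does not give the size. With the Y-linked term the log2 fold change was -0.01 (SE 0.26) for Phospho1 and -1.28 (SE 0.82) for Sparc. In the same fit it was -3.415 (SE 1.83) for Bglap and -3.24 (SE 1.68) for Bglap2. Without 1 library, Sparc ranged from -1.93 to -1.46, Bglap2 from -3.19 to -1.67 and Bglap from -3.28 to -1.35. Counts under 100 in most libraries limit Dlx5 and Ifitm5.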

Other observations

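The count of a gene divided by its TPM gives the transcript length the authors' quantification used, up to a factor per library. With that factor removed by the median over genes and each member set to 1 at the median of the 6 libraries, this length was 0.928 to 1.11 in aged 3, aged 4 and young 4 for 7 of the 9 members. It was 1.98, 1.60 and 1.55 in aged 3, aged 4 and young 4 for Phospho1, and 1.10 to 1.36 for Runx2. For Phospho1 it also differed within the 6 libraries, at 0.759, 0.752 and 1.06 in aged 1, aged 2 and aged 5, and 1.06, 1.09 and 0.944 in young 1 to young 3. For Sp7, Alpl and Ifitm5 it stayed between 0.970 and 1.01 in all 9 libraries. The factor removed here still separates CPM from TPM for every gene, so that Ifitm5 was at 3.25 CPM in aged 3 and 2.18 CPM in aged 2, but at 3.62 TPM in aged 3 and 4.98 TPM in aged 2.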
